A study of Mus musculus with 6 samples.

Results

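Potassium channel genes were compared between neonatal mouse ventricular cardiomyocytes with lowered Gdf11 and cells with a control hairpin. The members are the 94 protein-coding genes whose symbol begins with Kcn, of 54532 genes in the deposited table, 22046 of them protein-coding. They were chosen by name and biotype and not by their values, though with earlier results of these data known. Gdf11 encodes a signalling protein of the TGF-beta superfamily that cells secrete, and the series concerns its deficiency in heart failure under pressure overload. Cells of both groups were primary ventricular cardiomyocytes of C57BL/6J mice at 1 day of age. The 3 shGDF11 libraries carried a short hairpin RNA against Gdf11. The 3 control libraries carried the hairpin labelled sh-nc, which the treatment protocol calls sh-Vector. The protocols give a multiplicity of infection of 200 and RNA extraction after 48 h for both. The labels name no genetic alteration of the mice. The promoter of the hairpin, the number of hairpin sequences and the number of separate cultures were not stated in those labels, so p-values measure the spread between these libraries, which may be technical.

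Potassium channels let potassium ions leave the cell and so end the cardiac action potential and hold the resting potential. Voltage-gated channels open on depolarisation and carry the transient outward and delayed rectifier currents. Inward rectifiers set the resting potential and include the channels gated by acetylcholine and by the ATP level. Tandem-pore channels carry background current, and accessory subunits such as the Kcne proteins change the gating of the pore-forming subunits. In mouse ventricle the set of expressed channel genes changes markedly after birth.

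Levels are FPKM, fragments scaled to gene length and to library size, which permits comparison between genes. The libraries ranged from 15267083 to 16152910 reads over all genes, as recovered from FPKM. For a 1 kb gene, 3 reads were then worth 0.18 to 0.191 FPKM. Gdf11 was at 2.76, 2.30 and 2.31 FPKM in control and at 0.614, 0.601 and 0.778 FPKM in shGDF11, where every library lay below every control (log2 fold change -1.34 ± 0.125 SE, limma adjusted p = 0.00079). Of 8 cardiomyocyte markers, 2 rose (Myl2 and Tnni3) and 3 fell (Actc1, Pln and Ryr2). Their summed level was 7815 to 8065 FPKM in control and 6417 to 6726 FPKM in shGDF11. Actc1 was the largest part of that sum, at a mean of 4187 FPKM in control and 2766 FPKM in shGDF11. Markers of fibroblasts summed to 291 to 346 and 368 to 386 FPKM, those of macrophages to 159 to 182 and 124 to 135 FPKM, and those of endothelium to 68.8 to 74.7 and 48.6 to 51.9 FPKM, so other cell types of the heart were present. In such bulk samples fewer cells of a type and less RNA per cell cannot be told apart.

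Lowered Gdf11 went with changes in both directions among the potassium channel genes. Of the 94 members, 41 reached a mean of 0.5 FPKM over the 6 libraries and were tested. Of these, 8 rose and 8 fell at a limma adjusted p under 0.05, which is 39.0% of the members tested, beside 27.6% of all 15418 genes tested. In each direction the share was 19.5%, beside 14.4% of all genes called higher and 13.1% called lower. For 23 of the 41 (56.1%) no shGDF11 value fell within the control range or the reverse, beside 45.8% of all genes tested. Of these, 11 were higher in shGDF11 and 12 lower, beside 23.7% and 22.2% of all genes. On the log2(FPKM + 0.5) scale, 2 called members, Kcnj14 and Kcnj4, changed at least 2-fold, beside 2.55% of all genes. The median log2 fold change was -0.09, beside 0.01 over all genes tested, and its sign turned with the filter, to 0.09 when members had to reach 1 FPKM and to 0.27 at 5 FPKM. After rescaling to TPM, 10 members were called higher and 7 lower, and over all genes 66.3% of the calls were then higher, against 52.4% in the main test. The 8 falls were 5 without shGDF11 replicate 1, without shGDF11 replicate 2 or without shGDF11 replicate 3.

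Levels were unevenly spread over the family. The 5 genes with the highest mean, Kcng2, Kcnh2, Kcnj5, Kcne1 and Kcnj2, held 63.0% of the summed control level. Kcng2, a subunit that forms no channel on its own and modifies others, was at 51.0, 47.6 and 43.4 FPKM in control and at 52.6, 46.2 and 48.9 FPKM in shGDF11. The groups overlapped, and Kcng2 was not called (log2 fold change 0.06, 95% interval -0.13 to 0.25, limma adjusted p = 0.63). The summed level of all 94 members was 223 to 251 FPKM in control and 229 to 241 FPKM in shGDF11 (exact two-sided permutation p = 1). So the sum of the family overlapped between the groups while single members rose and fell within it. Of the members just inside the filter, Kcna6 had a mean of 0.513 FPKM and Kcnh7 of 0.518 FPKM, and just outside it Kcnk2 had 0.478 FPKM and Kcnh1 0.421 FPKM. For 7 tested members, the mean of 1 group lay under 0.5 FPKM, and 4 of them were called, among them Kcnj14, Kcnf1 and Kcnmb1.

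**Figure D1:**
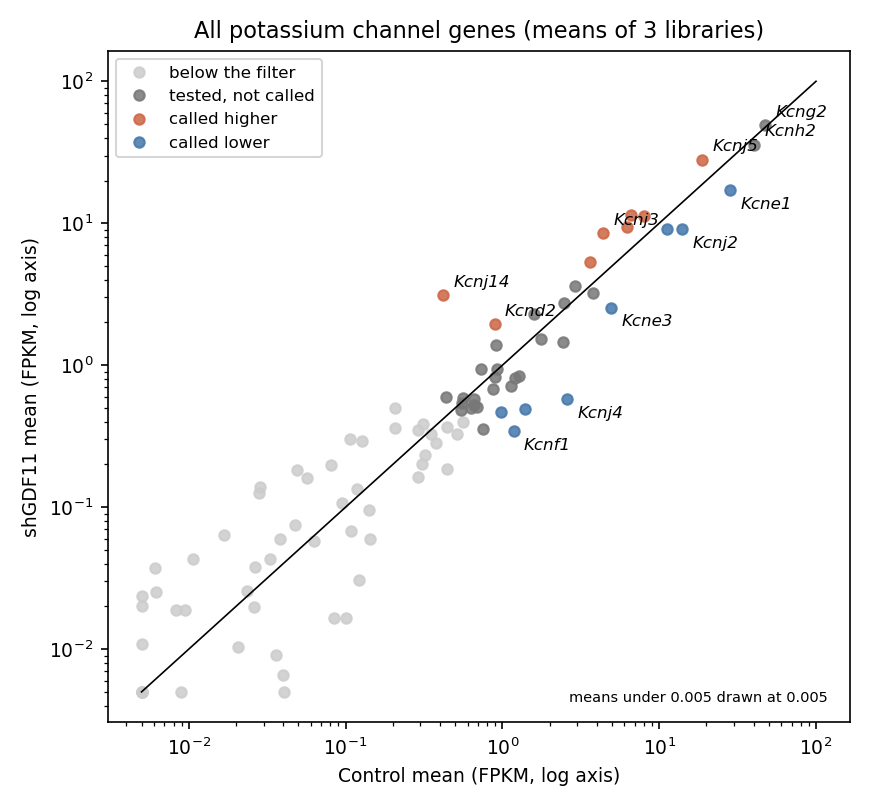
Mean level of each of the 94 potassium channel genes in control (horizontal axis) and shGDF11 (vertical axis), in FPKM on log axes, as means of 3 libraries. The line marks equal levels. Kcng2 and Kcnh2 lie near it at the top, Kcnj14 lies furthest above it among tested genes and Kcnj4 furthest below.

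Inward rectifiers held the largest rise and the largest fall of the tested members. Of 15 Kcnj genes, 9 were tested; 4 rose (Kcnj14, Kcnj3, Kcnj5 and Kcnj12) and 3 fell (Kcnj4, Kcnj2 and Kcnj11), beside 14.4% and 13.1% of all genes tested. The summed level of the 15 genes was 61.8, 62.7 and 59.7 FPKM in control and 72.4, 72.6 and 74.1 FPKM in shGDF11, with no overlap. The two-sided p of an exact permutation test over libraries was 0.1, which is also the lower limit with 3 libraries in each group and applies to the other sums and ratios that did not overlap.

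Promoter sequence is shown for 4 inward rectifier genes. Kcnj3 and Kcnj5, whose products form a channel together, both rose. Kcnj2 and Kcnj4, which code for strong inward rectifiers, both fell, while the other strong inward rectifier genes, Kcnj12 and Kcnj14, rose. Each run is the 250 bases before the RefSeq start of the gene on GRCm38.p6, 5′ to 3′ on the gene's strand. Capitals mark matches, on either strand, to ACGTG (core of the hypoxia response element), CAGACA (a SMAD box with its flank) and GGGCGG (GC box).
Kcnj3 (chr2:55435720-55435969, plus strand): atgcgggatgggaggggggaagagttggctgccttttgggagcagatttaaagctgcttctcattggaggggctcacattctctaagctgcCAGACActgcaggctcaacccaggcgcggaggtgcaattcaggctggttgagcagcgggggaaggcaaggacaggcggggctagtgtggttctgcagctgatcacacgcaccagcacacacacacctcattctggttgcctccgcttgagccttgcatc
Kcnj5 (chr9:32344345-32344594, minus strand): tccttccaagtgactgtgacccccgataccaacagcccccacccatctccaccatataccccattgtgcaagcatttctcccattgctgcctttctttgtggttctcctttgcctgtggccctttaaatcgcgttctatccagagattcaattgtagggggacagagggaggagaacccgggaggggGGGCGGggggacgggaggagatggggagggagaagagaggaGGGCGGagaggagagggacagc
Kcnj2 (chr11:111065914-111066163, plus strand): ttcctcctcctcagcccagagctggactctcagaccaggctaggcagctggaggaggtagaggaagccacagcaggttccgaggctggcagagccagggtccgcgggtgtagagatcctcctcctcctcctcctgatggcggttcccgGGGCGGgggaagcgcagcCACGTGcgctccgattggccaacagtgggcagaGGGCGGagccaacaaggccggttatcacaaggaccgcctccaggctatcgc
Kcnj4 (chr15:79505242-79505491, minus strand): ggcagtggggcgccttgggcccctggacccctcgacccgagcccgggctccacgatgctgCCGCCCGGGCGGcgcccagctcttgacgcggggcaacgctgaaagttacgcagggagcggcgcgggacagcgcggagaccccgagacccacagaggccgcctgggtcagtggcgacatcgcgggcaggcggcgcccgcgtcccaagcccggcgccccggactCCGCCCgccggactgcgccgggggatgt

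The 4 windows differ in base composition. Kcnj4 had 77.2% G and C and 35 CpG dinucleotides, Kcnj2 65.6% and 14, Kcnj3 58.4% and 7, and Kcnj5 58.0% and 7, beside medians of 52.4% and 6 over all 32851 RefSeq windows of this length. GC boxes matched in Kcnj5, Kcnj2 and Kcnj4, and in 32.7% of all windows. In Kcnj2 the hypoxia response core matched on both strands, as overlapping matches, and 16.6% of all windows hold it. The SMAD box matched in Kcnj3, and in 17.1% of all windows. RefSeq windows matched 69 of the 94 members by symbol, among them 5 that rose and 5 that fell. No limit was set on the distance from the RefSeq start to the listed gene start. For Kcnj12, 1 of the 5 that rose, it was 43240 bases. The hypoxia response core was in 2 of the 5 that fell (Kcnj2 and Kcne3) and 0 of the 5 that rose, and the SMAD box in 2 of the 5 that rose (Kcnj3 and Kcne1l) and 0 of the 5 that fell. The GC box was in 3 of the 5 that rose and 2 of the 5 that fell. Among all 69 matched members, the hypoxia response core was in 12, the SMAD box in 16 and the GC box in 32. Runs for AP-1, PAR bZIP and MEF2 sites and the TATA box were also searched. The AP-1 run was in 1 of the 5 that fell and 0 of the 5 that rose, and the others in 0 of either. A match is a run of letters and was not tested as a site.

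Kcnj14 (chromosome 7, 45816460 to 45824782, minus strand, on GRCm38 as for all genes here), a strong inward rectifier subunit, had the largest rise. It was at 0.750, 0.353 and 0.158 FPKM in control and at 3.20, 3.03 and 3.13 FPKM in shGDF11. The controls spread widely at 7 to 32 reads each, and the shGDF11 libraries lay close together at 135 to 143 reads. The log2 fold change was 2.03 ± 0.227 (SE; limma adjusted p = 0.0014). Summed reads were 55 in control and 415 in shGDF11, 7.50 times more after scaling for depth (95% exact interval for counting error alone, 5.65 to 10.1), and with limma voom on reads, free of the pseudocount, the log2 fold change was 3.13. Its call held under every alternative that tested it.

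Kcnj4 (chromosome 15, 79483714 to 79505241, minus strand), a strong inward rectifier subunit of the same subfamily as Kcnj2, had the largest fall. It was at 3.11, 2.31 and 2.36 FPKM in control and at 0.226, 0.766 and 0.749 FPKM in shGDF11. Every shGDF11 library lay below every control, with replicate 1 the lowest at 8 reads. The log2 fold change was -1.55 ± 0.240 (SE; limma adjusted p = 0.0044), and the level in shGDF11 was 22.4% of control.

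Kcnj2 (chromosome 11, 111066164 to 111076821, plus strand), which encodes the main strong inward rectifier of ventricular muscle, fell as well. It was at 13.1, 14.5 and 14.1 FPKM in control and at 8.25, 8.83 and 10.1 FPKM in shGDF11 (log2 fold change -0.60 ± 0.0864 SE, limma adjusted p = 0.0034). Kcnj12 (chromosome 11, 61022564 to 61071131, plus strand), a partner subunit with which it can form mixed channels, moved the other way. It was at 6.66, 6.63 and 5.28 FPKM in control and at 9.58, 8.70 and 9.87 FPKM in shGDF11 (log2 fold change 0.57 ± 0.103 SE, limma adjusted p = 0.0082). Neither gene's groups overlapped.

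The 4 strong inward rectifier genes thus changed in make-up more than in sum. Their summed level was 23.6, 23.8 and 21.9 FPKM in control and 21.3, 21.3 and 23.8 FPKM in shGDF11, and the groups overlapped (exact two-sided permutation p = 0.4). Kcnj2 made up 60.3% ± 4.49 of the sum in control and 40.8% ± 1.81 in shGDF11 (mean ± SD, n = 3, here and below), and Kcnj12 26.7% ± 2.30 and 42.4% ± 2.30. Kcnj4 made up 11.2% ± 1.74 and 2.60% ± 1.35, and Kcnj14 1.79% ± 1.25 and 14.1% ± 0.976. None of these shares overlapped between the groups (exact two-sided permutation p = 0.1 for each). The ratio of Kcnj2 to Kcnj12 was 2.27 ± 0.363 in control and 0.965 ± 0.0904 in shGDF11. The sums follow lists of currents; the shares and ratios were chosen after the values were seen.

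**Figure D2:**
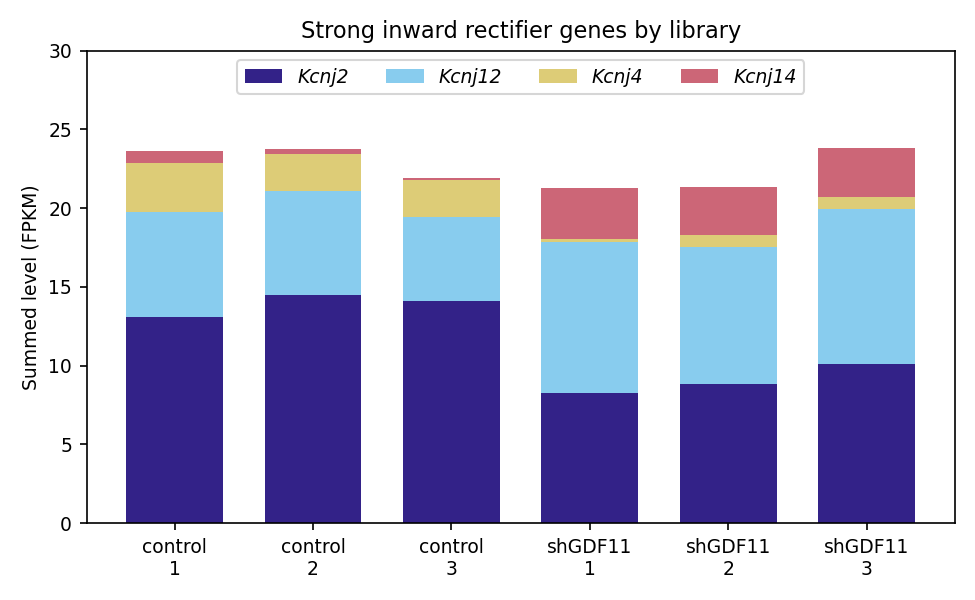
Stacked levels of Kcnj2, Kcnj12, Kcnj4 and Kcnj14 in each of the 6 libraries, in FPKM from 0. The height of the bars overlaps between groups at 21.3 to 23.8 FPKM, while the Kcnj2 and Kcnj4 segments are smaller and the Kcnj12 and Kcnj14 segments larger in every shGDF11 library.

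Kcnj3 and Kcnj5, the subunits of the channel that acetylcholine opens in atrial and nodal cells, both rose. Kcnj3 (chromosome 2, 55435970 to 55598145, plus strand) was at 3.88, 4.54 and 4.74 FPKM in control and at 8.15, 9.02 and 8.33 FPKM in shGDF11 (log2 fold change 0.88 ± 0.0892 SE, limma adjusted p = 0.0010). The antisense gene Gm26794 covers 31.1% of the Kcnj3 exon sequence and was at 0.0443 to 0.227 FPKM in the 6 libraries. Kcnj5 (chromosome 9, 32314707 to 32344350, minus strand) was at 18.1, 19.9 and 18.3 FPKM in control and at 28.6, 27.9 and 27.8 FPKM in shGDF11 (log2 fold change 0.57 ± 0.0595 SE, limma adjusted p = 0.0011). Together they summed to 23.1 ± 1.25 FPKM in control and 36.6 ± 0.431 FPKM in shGDF11, with no overlap. Kcnj5 stood above Kcnj3 in every library, at 4.30 ± 0.395 times its level in control and 3.31 ± 0.209 times in shGDF11. Of 5 tested markers of atrial and nodal cells, 2 rose, Myl7 and Vsnl1. Sln, Tbx3 and Shox2 were not called (log2 fold change 0.35, -0.07 and 0.01). The list of 6 summed to 265 to 343 FPKM in control and 412 to 419 FPKM in shGDF11. Most of that sum was Myl7, at means of 262 and 377 FPKM. The ventricular light chain gene Myl2 also rose, from 543 to 813 FPKM. The part of these cells in the rise of Kcnj3 and Kcnj5 was not tested.

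Kcnj11 was called lower and Kcnj8 was not called among the pore genes of the ATP-sensitive channel. Kcnj11, its pore subunit in ventricular muscle, was at 11.9, 10.8 and 11.0 FPKM in control and at 8.99, 9.17 and 9.14 FPKM in shGDF11 (log2 fold change -0.29 ± 0.0627 SE, limma adjusted p = 0.015). That call was lost without any 1 shGDF11 library (limma adjusted p = 0.059, 0.059 and 0.056 without replicates 1, 2 and 3) and after rescaling to TPM (0.062). Kcnj8, the pore subunit in smooth muscle, pericytes and other cells, was at 3.52, 2.64 and 2.55 FPKM in control and at 3.96, 3.43 and 3.53 FPKM in shGDF11. Its groups overlapped and it was not called (limma adjusted p = 0.13), but it was called higher without control replicate 1 (0.021) and after rescaling to TPM (0.041). The ratio of Kcnj11 to Kcnj8 was 3.93 ± 0.488 in control and 2.51 ± 0.215 in shGDF11, with no overlap. Kcnj15 was at 0.911 ± 0.160 and 1.38 ± 0.121 FPKM, which did not pass (limma adjusted p = 0.063). It was called higher by limma voom (0.017), without the variance trend and when adjusted over protein-coding genes alone.

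**Figure D3:**
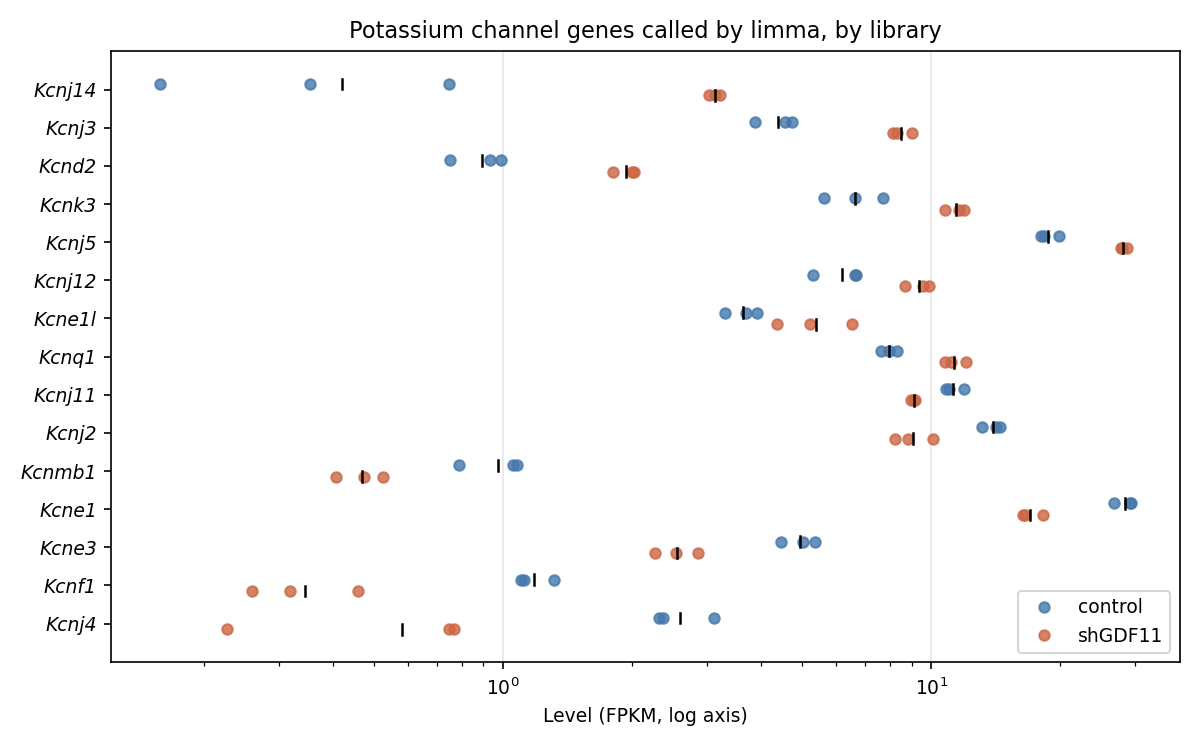
Level of 15 of the called potassium channel genes in each library (points, FPKM on a log axis), with the mean of each group as a bar, ordered by log2 fold change. The 15 were drawn because they were called on these same libraries, and the groups do not overlap for any of them, beside 45.8% of all genes tested. The genes run from Kcnj14 (0.158 to 0.750 FPKM in control, 3.03 to 3.20 in shGDF11) to Kcnj4 (2.31 to 3.11 and 0.226 to 0.766).

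Among pore-forming subunits of voltage-gated channels, 14 of 40 genes were tested, 2 rose and 2 fell, a share near the 27.6% of all genes called. Kcnq1 (chromosome 7, 143106362 to 143427042, plus strand), the pore of the slow delayed rectifier, rose. It was at 8.33, 7.97 and 7.65 FPKM in control and at 10.8, 12.1 and 11.1 FPKM in shGDF11 (log2 fold change 0.48 ± 0.0696 SE, limma adjusted p = 0.0035). Its antisense transcript Kcnq1ot1 shares 2.96% of the exon bases of Kcnq1 and was at 0.322 FPKM in control and 0.326 FPKM in shGDF11.

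Kcnd2 (chromosome 6, 21215503 to 21729805, plus strand), a pore subunit of the fast transient outward current, rose to 2.18 times its control level. It was at 0.753, 0.931 and 0.988 FPKM in control and at 2.02, 1.8 and 2.00 FPKM in shGDF11 (log2 fold change 0.81 ± 0.119 SE, limma adjusted p = 0.0036). The other genes of that current did not pass the test. Kcna4, a pore subunit of its slow component, was at 2.48 ± 0.175 and 2.73 ± 0.153 FPKM (log2 fold change 95% interval -0.09 to 0.33). Kcnip2, the accessory subunit of the Kcnd channels, was at 1.19, 1.40 and 1.23 FPKM in control and at 1.05, 0.509 and 0.945 FPKM in shGDF11 (95% interval -0.88 to 0.01, limma adjusted p = 0.13). Every shGDF11 value of Kcnip2 lay below every control value, with replicate 2 the lowest. Kcnd3 was below the filter at 6 to 27 reads per library. The 4 genes summed to 4.75 ± 0.233 FPKM in control and 5.57 ± 0.278 FPKM in shGDF11, with no overlap.

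The falls among pore-forming voltage-gated genes included that of Kcnf1, at a low level. Kcnf1, an electrically silent subunit that modifies other voltage-gated subunits, was at 1.12, 1.10 and 1.32 FPKM in control and at 0.457, 0.319 and 0.259 FPKM in shGDF11 (log2 fold change -0.99 ± 0.161 SE, limma adjusted p = 0.0053). Its reads fell from 275 to 81 summed over the libraries of a group, a depth-scaled ratio of 0.293 (95% exact interval for counting error alone, 0.226 to 0.376), and limma voom gave a log2 fold change of -1.79.

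Kcnh2, the pore of the rapid delayed rectifier, was the second highest member in both groups. It was at 45.9, 39.3 and 36.1 FPKM in control and at 35.5, 34.2 and 37.4 FPKM in shGDF11, and the groups overlapped (log2 fold change -0.17, 95% interval -0.39 to 0.05, limma adjusted p = 0.21). Kcna5, a pore subunit of a sustained outward current in mouse ventricle, was not called either, at 0.553 ± 0.0434 and 0.543 ± 0.167 FPKM (95% interval -0.46 to 0.41). Kcnq5 and Kcna7 had log2 fold changes of -0.37 and -0.57 and were not called in the main test (limma adjusted p = 0.083 and 0.067). Both were called lower by limma voom.

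**Figure D4:**
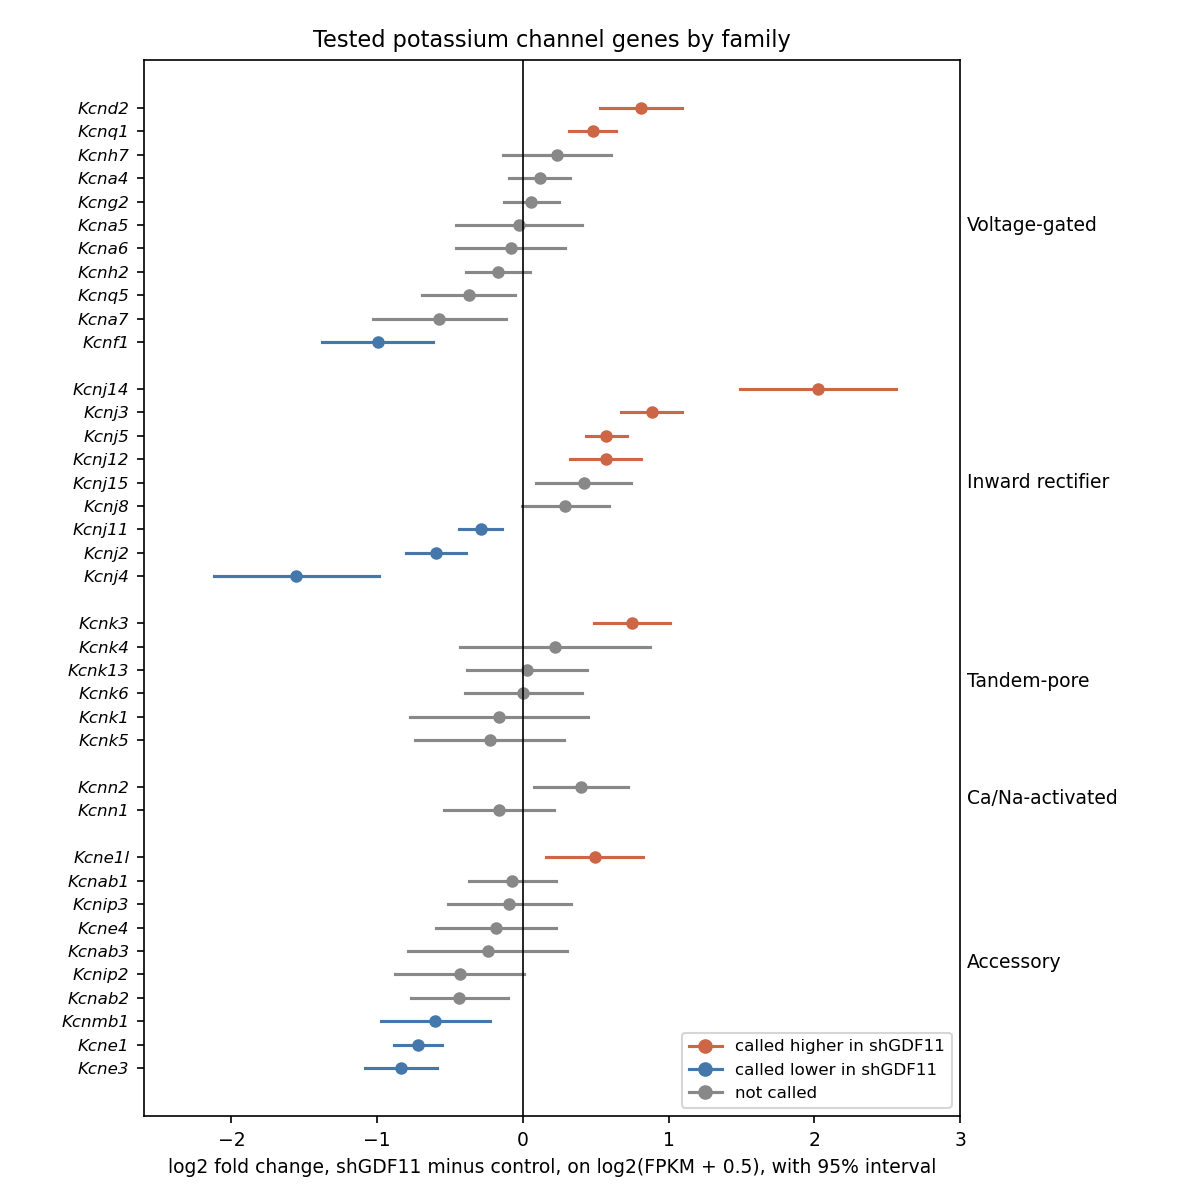
Log2 fold change of 38 of the tested potassium channel genes on log2(FPKM + 0.5), shGDF11 minus control, with the 95% interval from limma, by family. Inward rectifiers span from -1.55 (Kcnj4) to 2.03 (Kcnj14). Of 10 accessory genes tested, 3 were called lower and 1, Kcne1l, higher, beside 13.1% and 14.4% of all genes tested.

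Accessory subunits summed to a lower level in shGDF11. The 17 genes, of which 10 were tested, summed to 49.0, 45.8 and 47.4 FPKM in control and to 34.6, 31.4 and 34.6 FPKM in shGDF11, with no overlap. Kcne1 (chromosome 16, 92345982 to 92359468, minus strand) carried most of this sum. It encodes the subunit that turns Kcnq1 into the slow delayed rectifier, and was at 29.1, 26.7 and 29.3 FPKM in control and at 16.4, 16.6 and 18.2 FPKM in shGDF11. Its log2 fold change was -0.72 ± 0.0693 (SE), with the smallest p of the members (limma adjusted p = 0.00091).

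Since Kcnq1 rose while Kcne1 fell, the ratio of Kcne1 to Kcnq1 was 3.49, 3.35 and 3.83 in the control libraries and 1.52, 1.37 and 1.64 in the shGDF11 libraries. The highest shGDF11 ratio lay below the lowest control ratio. Kcne3 (chromosome 7, 100176502 to 100184869, plus strand), a partner of Kcnq1 and of other voltage-gated channels, was at 5.01, 4.45 and 5.34 FPKM in control and at 2.53, 2.85 and 2.26 FPKM in shGDF11 (log2 fold change -0.83 ± 0.105 SE, limma adjusted p = 0.0020). Kcne1l, also known as Kcne5, was the accessory gene that rose, at 3.92, 3.69 and 3.30 FPKM in control and 6.55, 4.35 and 5.22 FPKM in shGDF11 (limma adjusted p = 0.041). Its call was lost without control replicate 1, 2 or 3 (limma adjusted p = 0.054, 0.093 and 0.099), without shGDF11 replicate 1 or 3 (0.093 and 0.10), without the variance trend (0.055) and without a filter (0.099). Kcne4, an inhibitory partner, was at 3.78 ± 0.840 and 3.24 ± 0.538 FPKM, which did not pass.

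**Figure D5:**
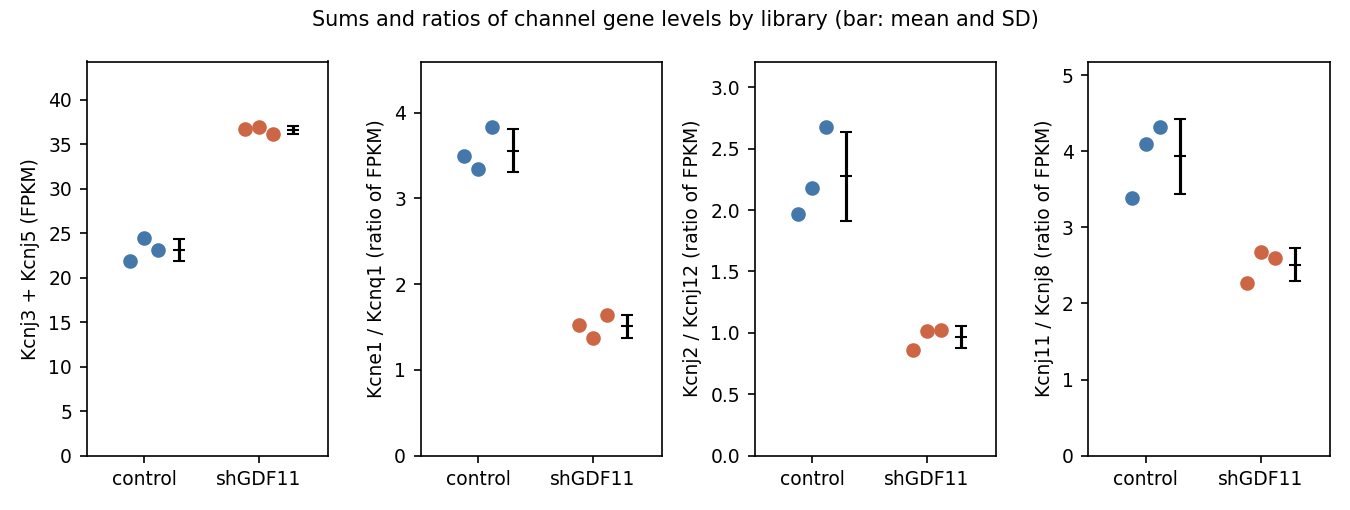
Summed level of Kcnj3 and Kcnj5 (FPKM) and ratios of FPKM of Kcne1 to Kcnq1, Kcnj2 to Kcnj12 and Kcnj11 to Kcnj8 in each library (points), with mean and SD beside them, on axes from 0. In all 4 panels the 3 shGDF11 libraries lie apart from the 3 control libraries.

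Kcnmb1, the accessory subunit of the large-conductance calcium-activated channel in smooth muscle, fell. It was at 1.08, 0.787 and 1.05 FPKM in control and at 0.407, 0.525 and 0.473 FPKM in shGDF11 (log2 fold change -0.60 ± 0.158 SE, limma adjusted p = 0.030; -1.04 by limma voom). The pore gene of that channel, Kcnma1, had 6 to 20 reads per library in control and 10 to 20 in shGDF11. Of 8 markers of smooth muscle and pericytes, 5 fell, and Rgs5, Pdgfrb and Notch3 were not called (log2 fold change 0.01, 0.06 and 0.11). The sum of the 8 was 1017 to 1095 FPKM in control and 409 to 415 FPKM in shGDF11, most of it Acta2. The smooth muscle myosin gene Myh11 was at 2.44 and 1.59 FPKM. The part of smooth muscle cells in the fall of Kcnmb1 was not tested. Its call was lost without control replicate 1 or 3 (limma adjusted p = 0.073 and 0.074) and without shGDF11 replicate 1, 2 or 3 (0.087, 0.068 and 0.077), and without a filter (0.066). Kcnab2, a beta subunit of Kcna channels, was at 1.14 ± 0.0699 and 0.717 ± 0.135 FPKM with no overlap, but was not called (limma adjusted p = 0.059). It was called lower by limma voom (0.015), without the variance trend and when adjusted over protein-coding genes alone.

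Of 14 tandem-pore genes, 6 were tested and 1 was called, beside 27.6% of all genes tested. The called gene was Kcnk3 (chromosome 5, 30588170 to 30625271, plus strand), an acid-sensitive background channel. It was at 7.70, 6.62 and 5.63 FPKM in control and at 11.6, 10.8 and 11.9 FPKM in shGDF11 (log2 fold change 0.75 ± 0.111 SE, limma adjusted p = 0.0037). Every shGDF11 library lay above every control. The 14 tandem-pore genes summed to 13.1, 11.1 and 10.2 FPKM in control and to 16.5, 14.4 and 16.4 FPKM in shGDF11, with no overlap. Kcnk1, Kcnk4, Kcnk5, Kcnk6 and Kcnk13 were at means of 0.501 to 0.944 FPKM, overlapped between the groups, and had log2 fold changes between -0.23 and 0.22. Kcnk2, a stretch-sensitive channel, was just below the filter at 0.559 ± 0.198 and 0.396 ± 0.0901 FPKM.

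Of the 8 calcium- or sodium-activated channel genes, Kcnn1 and Kcnn2, which encode small-conductance calcium-activated channels, were tested. Kcnn2 was at 1.57, 1.8 and 1.42 FPKM in control and at 2.71, 1.91 and 2.24 FPKM in shGDF11 and missed the threshold (limma adjusted p = 0.069, unadjusted p = 0.022). It was called higher by limma voom (adjusted p = 0.021) and after rescaling to TPM. Kcnn1 was at 0.655 ± 0.121 and 0.526 ± 0.00588 FPKM (limma adjusted p = 0.48). The 6 others were below the filter.

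Partner proteins and other potassium-conducting channels outside the Kcn names were called about as often as genes at large. Of 25 such genes, 18 were tested, 3 rose and 2 fell, a share near the 27.6% of all genes called, with a median log2 fold change of -0.05. Abcc9, the sulfonylurea receptor of the muscle ATP-sensitive channel, was at 37.8 ± 3.56 and 37.6 ± 0.942 FPKM, which did not pass (limma adjusted p = 0.96). Abcc8, the receptor typical of pancreatic and atrial channels, rose from 2.89 ± 0.297 to 3.74 ± 0.256 FPKM (limma adjusted p = 0.043). Tmem38b, a trimeric cation channel of the sarcoplasmic reticulum, rose from 5.75 to 8.03 FPKM, while its relative Tmem38a fell from 109.3 to 93.2 FPKM (limma adjusted p = 0.033 and 0.025). Dlg1, a scaffold that clusters potassium channels, rose from 7.31 to 8.78 FPKM (0.034). Hcn2 and Hcn4, pacemaker channel subunits, were not called (0.31 and 0.12). Each of these 4 calls was lost without any 1 shGDF11 library, with limma adjusted p up to 0.14 for Abcc8, 0.12 for Dlg1, 0.11 for Tmem38b and 0.099 for Tmem38a. Some were also lost without a control library: Abcc8 without replicate 1 or 2 (0.080 and 0.10), Dlg1 without replicate 1, 2 or 3 (0.051, 0.056 and 0.055) and Tmem38a without replicate 3 (0.052). Rescaling to TPM ended the call of Tmem38a (0.18). Irx5, a repressor of Kcnd2 in the heart, was at 9.15 and 7.22 FPKM, which did not pass (limma adjusted p = 0.057).

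The 53 members below the filter included 2, Kcna10 and Kcnk16, with no read in any library. Tested without a filter, the 51 others gave 0 calls by limma, beside 1.26% of the 16456 genes below the filter with a read. At an unadjusted p under 0.05 there were 10 (19.6%), beside 6.75% of those genes. Control and shGDF11 values lay apart for 16 of the 51 (31.4%), with 10 higher in shGDF11 and 6 lower, beside 5.87% and 4.14% of those genes. The genes set beside them had fewer reads, with a median of 7 over the 6 libraries against 29 for the 51 members. Those higher included the sodium-activated channel gene Kcnt1, at 9 to 20 reads in control and 30 to 65 in shGDF11. Kcnc1, a fast-gating channel, had 11 to 30 and 43 to 48 reads. Those lower included Kcnq3, a channel of the neuronal M current, at 31 to 38 and 10 to 17 reads. Kcnh3, a voltage-gated channel of forebrain neurons, had 29 to 55 and 13 to 25 reads. These 4 were chosen after their values were seen.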

How the data were processed

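RNA of 6 libraries, 3 per group, was sequenced, and the authors deposited 1 table of FPKM values per gene. Per the submitters' processing notes, featureCounts 1.5.0-p3 and HISAT2 2.0.5 were among the tools, and GRCm38 and mm10 the builds. Strand setting and annotation release were not given in the sources used here, so antisense reads may be counted with a gene. Start and end matched GENCODE M21 for 90 of the 94 members. Reads were recovered from FPKM times the listed gene length, with 100% of positive values within 0.05 of a whole read.

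Genes that reached a mean of 0.5 FPKM were tested on log2(FPKM + 0.5), which understates the change of low genes. The test was limma 3.58.1 in R 4.3.3 (eBayes with variance trend, two-sided, no covariate), adjusted by Benjamini-Hochberg over all tested genes. It was checked on simulated data in which only genes with many reads were changed, so the check does not cover genes with few reads. Members and lists were chosen with earlier results of these data known. Named members were Gdf11, a cardiac panel of 16, the 5 highest, all called members (up to 12 per direction) and called partners. Others named were chosen after their values were seen. Some genes are counted but not reported here by name. Exon overlaps used GENCODE M21 and promoters RefSeq on GRCm38.p6. Marker lists of neurons and glia (3 of 8 tested, 2 rose) and of fibroblasts (2 of 8 rose), endothelium (5 of 8 fell) and macrophages (3 of 7 tested fell) were counted too.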

Additional observations from a re-analysis of the deposited data

How the results depend on the processing

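Of the 16 called members, 12 kept their call and direction under every alternative that tested them, and 4, among them Kcnj11, Kcne1l and Kcnmb1, lost it under at least 1; none reversed. Of 19 alternatives, 1, leaving out members that share at least 10% of their exon bases with another gene, was chosen after seeing the data; it gave 7 rises and 7 falls. The 8 rises were 5 at a mean of at least 5 FPKM, where 10 members were tested. The 8 falls were 5 at a mean of at least 1 FPKM and 3 at 5 FPKM. Leaving out each library in turn gave 7 to 8 rises and 5 to 8 falls. Over protein-coding genes alone 10 rose and 12 fell, and by limma voom on recovered reads 11 and 12; both kept all 16 calls. The share of all genes called moved too, from 27.6% to 35.8% over protein-coding genes, 32.8% by voom, 31.3% at 1 FPKM, 37.5% at 5 FPKM, 9.72% without a filter, 20.9% with the block and 15.1% to 27.5% when 1 library was left out. Pseudocounts of 0.1 and 1 FPKM, centring on the median gene and robust eBayes kept all 16 and added none. Without a filter 7 rose and 6 fell. The Gdf11 log2 fold change ran from -1.88 to -1.05 and stayed called. Kcna5, not called, changed sign after rescaling to TPM (0.022) and ran from -0.13 to 0.11 when 1 library was left out, above 0 without shGDF11 replicate 2, and Kcng2 without control replicate 3 (-0.0021); the cause was not tested. The labels do not say that replicate numbers pair libraries, and deviations of same-numbered libraries from their group means correlated at 0.015, 0.015 and -0.052. A fit with a replicate block gave 8 rises and 6 falls, without the calls of Kcnj11 and Kcnmb1 (limma adjusted p = 0.052 and 0.078), and the Gdf11 log2 fold change was -1.34. Tested members had 123 to 17985 reads over the 6 libraries; for those with the fewest, counting error limits what could be called.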

Other observations

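Levels of the members were also correlated between libraries, as a description. Across the 41 tested members, which are not independent, Spearman's rho was 0.934 to 0.957 between control libraries, 0.905 to 0.947 between shGDF11 libraries and 0.750 to 0.816 between libraries of different groups. Over all tested genes, which span a wider range of levels, the values were 0.972 to 0.979, 0.982 to 0.983 and 0.949 to 0.962. Kcnj14 moved from rank 45 of the 94 members in control to rank 14 in shGDF11, Kcnj4 from 15 to 32 and Kcnf1 from 23 to 47.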
